A study of Mus musculus with 16 samples.

Results

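Adipose tissue takes fatty acids from the blood through a chain of proteins, and 8 genes of that chain were followed here in iWAT, the inguinal subcutaneous fat pad of the mouse. They were Lpl, Gpihbp1, Angptl4, Cd36, Slc27a1, Fabp4, Fabp5 and Vldlr, chosen by name and matched by gene symbol. All 8 were found among the 54752 gene identifiers of the count table, and all 8 passed the filter on low counts that left 19736 genes for testing.

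Triglycerides reach fat in chylomicrons and very low density lipoproteins, which are too large to leave the capillary. Lipoprotein lipase, the product of Lpl, is made by adipocytes and cuts these triglycerides at the capillary wall, where Gpihbp1 on the endothelial cell holds it, and Angptl4, a secreted protein that rises with fasting, inactivates it. The freed fatty acids cross membranes with the help of Cd36 and of the transport protein encoded by Slc27a1, and Fabp4 and Fabp5 carry them through the cytosol. Vldlr binds whole lipoprotein particles rich in triglyceride.

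The study asked how a lower leptin dose acts in a mouse model of amyotrophic lateral sclerosis (ALS). Its 16 iWAT libraries came from mice labelled C57BL/6 (C57BL/6J in the study's methods), female and 90 days old, with 4 libraries for each of 4 genotypes. The ob (obese) mutation of leptin was present on 1 chromosome in Lepob/+ mice, a multicopy transgene of mutant human SOD1 in SOD1G93A mice, both in SOD1G93A-Lepob/+ mice and neither in WT. The transgene runs from the human SOD1 promoter and is not limited to one tissue, and the ob allele is a point mutation, so no mouse gene count checked either genotype here. Levels are given as CPM, counts relative to the library total, after scaling by the trimmed mean of M values, which evens out differences in library composition.

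Totals ran from 36795376 to 61886313 counts per library. The mature adipocyte list (Adipoq, Plin1 and 10 other genes) averaged 933 to 2189 CPM per gene, so every library held adipocyte transcripts. Libraries differed in what else they held. The list of T cell and B cell genes averaged 72.0 to 183 CPM in 6 libraries and 0.824 to 2.84 CPM in the other 10, and the 6 were 2 of 4 WT, 1 of 4 Lepob/+, 3 of 4 SOD1G93A and 0 of 4 SOD1G93A-Lepob/+ libraries. Lepob/+ replicate 4 averaged 15830.3 CPM for the skeletal muscle list, against at most 404 CPM elsewhere, and the library labelled SOD1G93A-Lepob/+ replicate 3 held 1756 counts of Y chromosome genes and 0 of Xist, where the other 15 held 0 and at least 11895. In bulk tissue, fewer cells of a type and less RNA per cell cannot be told apart.

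On the GRCm38 (mm10) assembly, with GENCODE M21 gene models, Lpl (ENSMUSG00000015568) lies at chr8:68880491-68907448 on the + strand, Gpihbp1 (ENSMUSG00000022579) at chr15:75596628-75599481 (+), Angptl4 (ENSMUSG00000002289) at chr17:33773750-33781830 (-), Cd36 (ENSMUSG00000002944) at chr5:17781690-17888801 (-), Slc27a1 (ENSMUSG00000031808) at chr8:71568882-71587302 (+), Fabp5 (ENSMUSG00000027533) at chr3:10012548-10016607 (+), Fabp4 (ENSMUSG00000062515) at chr3:10204088-10208576 (-) and Vldlr (ENSMUSG00000024924) at chr19:27216484-27254231 (+). All are protein coding, and none overlaps another gene in these models. Fabp4 and Fabp5 are neighbours on chromosome 3 and encode related proteins. A processed pseudogene of Fabp5 in the same table collected 49 counts over all libraries.

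The RefSeq promoter table (GRCm38.p6) held entries for 3 of the 8 genes, Cd36, Slc27a1 and Vldlr, and their 250 bases before the listed start are shown for these 3. They run 5′ to 3′ on the gene's own strand. Capitals mark matches on either strand to 4 promoter motifs: the nuclear receptor element AGGTCA, which PPARγ and its partner RXR recognise in pairs, the GC box GGGCGG, the CCAAT box CCAAT and the TATA box TATAAA, and no match overlapped another.
Cd36, chr5:17835897-17836146, - strand: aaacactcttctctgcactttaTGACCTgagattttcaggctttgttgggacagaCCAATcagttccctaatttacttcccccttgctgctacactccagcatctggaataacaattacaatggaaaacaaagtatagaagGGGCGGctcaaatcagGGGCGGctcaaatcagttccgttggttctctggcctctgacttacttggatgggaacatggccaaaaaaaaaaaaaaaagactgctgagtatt
Slc27a1, chr8:71568621-71568870, + strand: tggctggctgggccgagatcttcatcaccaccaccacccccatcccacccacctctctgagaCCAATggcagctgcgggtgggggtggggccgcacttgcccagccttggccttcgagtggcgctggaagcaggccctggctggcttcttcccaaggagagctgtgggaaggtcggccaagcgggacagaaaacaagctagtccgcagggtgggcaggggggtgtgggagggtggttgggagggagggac
Vldlr, chr19:27216234-27216483, + strand: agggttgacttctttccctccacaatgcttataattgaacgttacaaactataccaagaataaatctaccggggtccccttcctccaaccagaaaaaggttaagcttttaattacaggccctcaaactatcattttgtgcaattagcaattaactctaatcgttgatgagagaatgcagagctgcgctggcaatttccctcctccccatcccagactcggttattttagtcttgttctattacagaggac
The Cd36 window, which ends 52905 bases downstream of the 5′ end of the GENCODE gene model, held 1 nuclear receptor element, 1 CCAAT box and 2 GC boxes. The Slc27a1 window held 1 CCAAT box and none of the other 3 motifs, although 66.4% of its bases were G or C, against 43.2% in Cd36 and 41.6% in Vldlr. The Vldlr window held none of the 4. Among all 32851 windows of this length in the table, 14.0% held the nuclear receptor element, 32.7% the GC box, 33.8% the CCAAT box and 12.4% the TATA box, so each is common, and a match describes only the letters.

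Per transcript length, Fabp4 and Lpl were the most abundant of the 8 and Vldlr the least. Dividing the mean CPM over 16 libraries by the length in kilobases of each gene's principal transcript (RPKM) gave 10028 for Fabp4, 1233 for Lpl, 548 for Cd36, 361 for Slc27a1, 187 for Fabp5, 122 for Gpihbp1, 103 for Angptl4 and 11.1 for Vldlr. With the length of all annotated exons instead, Cd36 (518) passed Lpl (484) and Angptl4 (96.5) passed Fabp5 and Gpihbp1 (51.7 and 39.5), while Fabp4 stayed highest and Vldlr lowest. Fabp4 alone took 0.898% of the scaled counts and Lpl 0.507%.

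**Figure D1:**
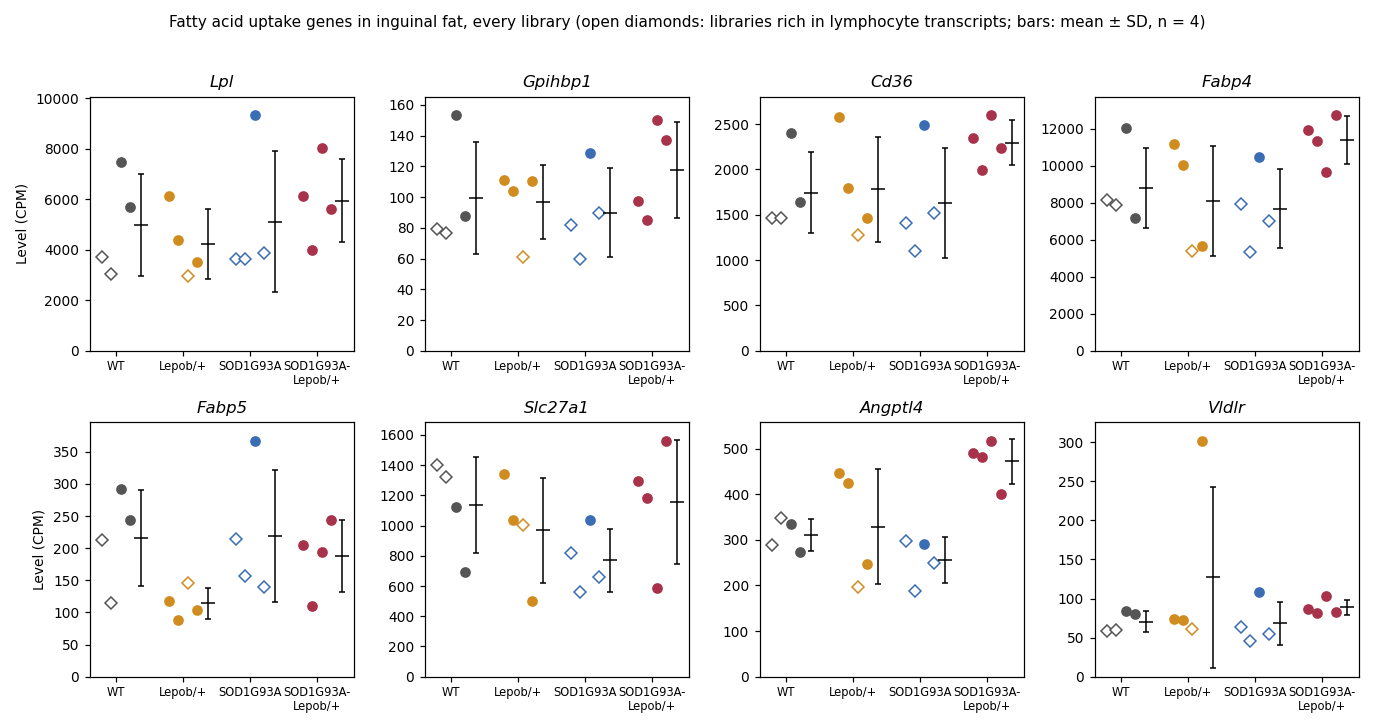
Level of each gene in CPM (vertical axes, from 0) in the 4 libraries of each genotype, with the mean ± SD beside them and open diamonds for the 6 libraries with many lymphocyte transcripts. Angptl4 is the gene whose 4 SOD1G93A-Lepob/+ libraries, at 400.2 to 516 CPM, all sit above every WT and SOD1G93A library, and the Vldlr value of 301 CPM in Lepob/+ stands alone.

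Angptl4, the inhibitor of lipoprotein lipase, was the gene with the clearest difference between genotypes. Its level was 288, 347, 334 and 273 CPM in the WT libraries, 446, 425, 196 and 248 CPM in the Lepob/+ libraries, 297, 187, 290.3 and 250.1 CPM in the SOD1G93A libraries and 490.1, 481, 516 and 400.2 CPM in the SOD1G93A-Lepob/+ libraries, in the order of the replicate numbers. The means were 311 ± 35.9 CPM for WT, 329 ± 126 CPM for Lepob/+, 256 ± 50.7 CPM for SOD1G93A and 472 ± 50.0 CPM for the double mutants (mean ± SD, n = 4). All 4 SOD1G93A-Lepob/+ libraries lay above all 8 WT and SOD1G93A libraries, whereas 2 of the 4 Lepob/+ libraries reached them.

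Against SOD1G93A, the Angptl4 level in SOD1G93A-Lepob/+ was higher by 0.88 on the log2 scale (SE 0.24, 95% confidence interval 0.37 to 1.40, 1.84-fold), with an unadjusted p of 0.00253 in edgeR's quasi-likelihood test and an adjusted p of 0.261 over all genes, which does not pass 0.05. The 2-sided exact permutation test gave 0.0286, the smallest p that 4 against 4 libraries can give. The call depended on the tool: the adjusted p was 0.0247 with DESeq2 on all libraries, 0.000223 with DESeq2 on these 8 libraries and 0.00504 with limma voom and library quality weights. Leaving out each of the 8 libraries in turn kept the difference between 0.76 and 0.97.

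Against WT, the difference was 0.60 (SE 0.24, edgeR unadjusted p = 0.0247, adjusted p = 0.951, exact permutation p = 0.0286), and it was 0.44 with libraries scaled to the adipocyte list (unadjusted p = 0.0839). Against Lepob/+, where the groups overlapped, it was 0.52 (SE 0.24, unadjusted p = 0.0471, adjusted p = 0.602). For neither mutation alone did the difference exceed the spread: the log2 difference from WT was 0.082 (interval -0.43 to 0.59) in Lepob/+ and -0.28 (interval -0.79 to 0.23) in SOD1G93A. The comparisons against WT, SOD1G93A and Lepob/+ share the same 4 SOD1G93A-Lepob/+ libraries, so they are not independent of each other. The effect of Lepob/+ was larger with the transgene than without it by 0.80 (SE 0.34, interaction term, edgeR unadjusted p = 0.033), which at an adjusted p of 0.564 did not pass.

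Markers of other cell types moved together with this difference. Over the 4 SOD1G93A-Lepob/+ libraries the 14 T cell and B cell genes summed to 11.5 to 26.0 CPM, against 13.3 to 2561 CPM in SOD1G93A. In edgeR 14 of 14 were lower at an unadjusted p under 0.05, 0 of 14 at an adjusted p under 0.05. Of all 19736 genes, 2434 were lower at that unadjusted p and 0 passed the adjusted one. The 8 lymph node genes (stroma and high endothelial venules) summed to 7.39 to 47.4 CPM against 14.3 to 1125 CPM, with 2 of the 8 at 0 in every SOD1G93A-Lepob/+ library. Of the 12 mature adipocyte genes 11 had a higher level, with a median log2 difference of 0.43, where 9882 of all 19736 genes had a higher level. With the lymph node list as a covariate, the Angptl4 difference was 0.65 (SE 0.28, unadjusted p = 0.034, adjusted p = 0.999). With libraries scaled to the adipocyte list it was 0.45 (unadjusted p = 0.0805), a scaling that moved the median of all genes to -0.47. Among the 10 libraries with few lymphocyte transcripts, Angptl4 was at 334 and 273 CPM in WT, 290.3 CPM in the single SOD1G93A library, 446, 425 and 248 CPM in Lepob/+ and 400.2 to 516 CPM in SOD1G93A-Lepob/+. A fit to these 10, chosen after seeing the data, gave 0.71 (unadjusted p = 0.075) against the single SOD1G93A library, which was assumed to vary like the other genotypes.

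**Figure D2:**
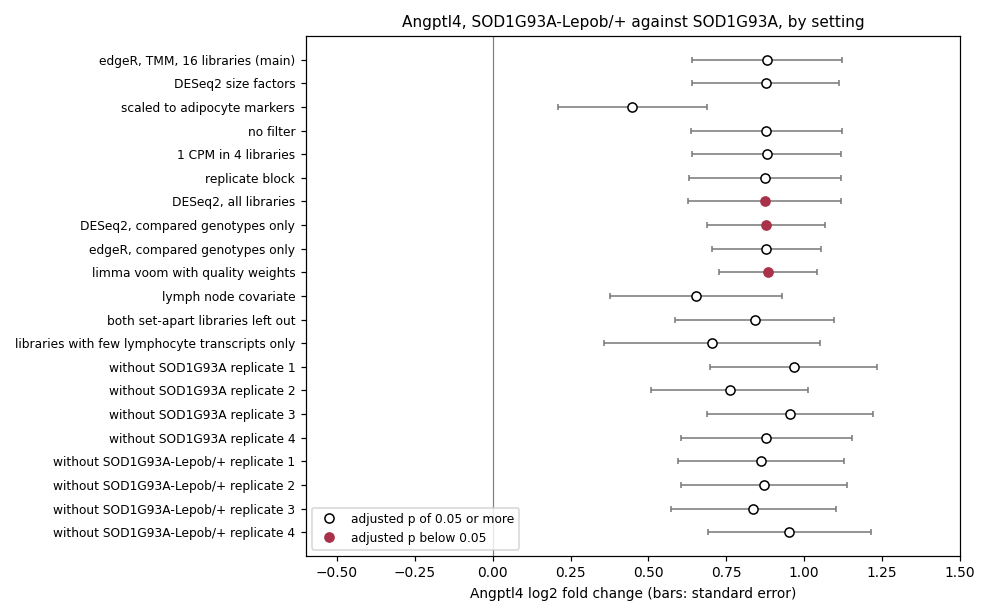
Log2 fold change of Angptl4 in SOD1G93A-Lepob/+ against SOD1G93A (horizontal axis, bars are standard errors) under each way of processing the counts. The value stays above 0 in the test reported and in all 20 alternatives, lies between 0.45 and 0.97, and passes an adjusted p of 0.05 in 3 of them (filled points).

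For the lipase itself, the spread within genotypes was wider than the differences between them. Lpl was at 3699, 3045, 7464 and 5709.5 CPM in the WT libraries, 6114, 4374, 2947 and 3514 CPM in the Lepob/+ libraries, 3641, 3623, 9326 and 3889.9 CPM in the SOD1G93A libraries and 6122, 4009.8, 8038 and 5634 CPM in the SOD1G93A-Lepob/+ libraries. The libraries spread widely within each genotype, with SOD1G93A replicate 3 the highest of all and Lepob/+ replicate 3 the lowest, and every pair of genotypes overlapped. Its means were 4979 ± 2007 CPM for WT, 4237 ± 1382 CPM for Lepob/+, 5120.0 ± 2806 CPM for SOD1G93A and 5951 ± 1659 CPM for the double mutants (mean ± SD, n = 4). The log2 difference between SOD1G93A-Lepob/+ and SOD1G93A was 0.22 (interval -0.59 to 1.03, edgeR adjusted p = 0.794), and it was -0.42 with the lymph node covariate.

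Gpihbp1, which holds the lipase on the capillary wall, varied by 2.58-fold from the lowest to the highest library, against 3.16-fold for Lpl. It was at 79.5, 76.5, 153 and 88.0 CPM in the WT libraries, 111, 104, 61.1 and 111 CPM in the Lepob/+ libraries, 82.1, 59.4, 128 and 89.7 CPM in the SOD1G93A libraries and 97.6, 85.1, 150.2 and 137 CPM in the SOD1G93A-Lepob/+ libraries. WT replicate 3 and 2 SOD1G93A-Lepob/+ libraries were high, and every pair of genotypes overlapped. Means ran from 89.9 ± 28.7 CPM in SOD1G93A to 117 ± 31.1 CPM in SOD1G93A-Lepob/+ (SD, n = 4 each), and the log2 difference of these was 0.39 (interval -0.24 to 1.01, edgeR adjusted p = 0.506).

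Cd36, the fatty acid translocase of adipocytes and capillary endothelium, was at 1466, 1469, 2406 and 1636 CPM in the WT libraries, 2579, 1796, 1278 and 1463 CPM in the Lepob/+ libraries, 1404, 1098, 2489.9 and 1524 CPM in the SOD1G93A libraries and 2344, 1998, 2596 and 2236 CPM in the SOD1G93A-Lepob/+ libraries. All 4 SOD1G93A-Lepob/+ libraries were at 1998 CPM or above, a range that WT replicate 3, Lepob/+ replicate 1 and SOD1G93A replicate 3 also reached, while the other 9 libraries were at 1796 CPM or below. The means were 1744 ± 448 CPM for WT, 1779 ± 575 CPM for Lepob/+, 1629 ± 601 CPM for SOD1G93A and 2293 ± 248 CPM for the double mutants (mean ± SD, n = 4). The log2 difference between SOD1G93A-Lepob/+ and SOD1G93A was 0.49 (SE 0.27, edgeR unadjusted p = 0.0939, adjusted p = 0.372), and with the lymph node covariate it was 0.063.

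Slc27a1, which encodes a fatty acid transport protein with acyl-CoA synthetase activity, had a different order of libraries. It was at 1404, 1321, 1123 and 690.4 CPM in the WT libraries, 1342, 1035, 1004 and 502 CPM in the Lepob/+ libraries, 822, 559, 1035 and 663 CPM in the SOD1G93A libraries and 1296, 1181, 587 and 1558 CPM in the SOD1G93A-Lepob/+ libraries. In 3 genotypes a single library was low: WT replicate 4, Lepob/+ replicate 4 and SOD1G93A-Lepob/+ replicate 3. In SOD1G93A, replicates 2 and 4, at 559 and 663 CPM, also lay below WT replicate 4, at 690.4 CPM. Lepob/+ replicate 4 was the library rich in muscle transcripts. SOD1G93A-Lepob/+ replicate 3 was the one with Y chromosome counts and no Xist counts. Every pair of genotypes overlapped. The mean was lowest in SOD1G93A, at 769.7 ± 207 CPM against 1135 ± 319 CPM in WT (SD, n = 4 each), a log2 difference of -0.56 (interval -1.29 to 0.17, edgeR adjusted p = 0.998).

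The cytosolic carriers went separate ways. Fabp4, the main fatty acid binding protein of adipocytes, was at 8139, 7869.6, 12009 and 7154 CPM in the WT libraries, 11164, 10047, 5392 and 5663 CPM in the Lepob/+ libraries, 7942, 5343, 10448 and 6985 CPM in the SOD1G93A libraries and 11899, 11336, 9649 and 12714 CPM in the SOD1G93A-Lepob/+ libraries. The 4 SOD1G93A-Lepob/+ libraries were all at 9649 CPM or above, where 1 WT, 2 Lepob/+ and 1 SOD1G93A library also lay. The means were 8793 ± 2184 CPM for WT, 8067 ± 2969 CPM for Lepob/+, 7679.5 ± 2135 CPM for SOD1G93A and 11399.6 ± 1297 CPM for the double mutants (mean ± SD, n = 4). Against SOD1G93A the log2 difference was 0.57 (SE 0.28, interval -0.03 to 1.17, edgeR unadjusted p = 0.061, adjusted p = 0.321, 2-sided exact permutation p = 0.0571). It was 0.16 when libraries were scaled to the adipocyte list and 0.23 with the lymph node covariate.

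Fabp5, the epidermal type carrier, had the largest difference of the 5 genes whose level was lower in Lepob/+ than in WT. It was at 212, 115, 292 and 244 CPM in the WT libraries, 118, 88.7, 146 and 104 CPM in the Lepob/+ libraries, 214, 156, 366 and 139.9 CPM in the SOD1G93A libraries and 205, 109.7, 193 and 244 CPM in the SOD1G93A-Lepob/+ libraries. Of the 4 WT libraries, 3 lay above all 4 Lepob/+ libraries, and WT replicate 2 lay within their range. The mean was 114 ± 24.4 CPM in Lepob/+ against 216 ± 74.6 CPM in WT (SD, n = 4 each). The log2 difference was -0.92 (SE 0.34, 95% interval -1.65 to -0.18, edgeR unadjusted p = 0.0177, adjusted p = 1, exact permutation p = 0.0857), so it did not pass over all genes. It was -0.57 with libraries scaled to the adipocyte list (unadjusted p = 0.0605).

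Among the 10 libraries with few lymphocyte transcripts, an alternative chosen after seeing the data, the Fabp5 difference between Lepob/+ and WT was -1.39 (edgeR unadjusted p = 0.00179, adjusted p = 0.964). Here the 3 Lepob/+ libraries, at 88.7 to 118 CPM, lay below both WT libraries, at 244 and 292 CPM. In mice with the transgene, the Fabp5 difference between carriers and non-carriers of the ob allele was -0.22 (interval -0.95 to 0.51), and the test of the difference between these 2 effects gave 0.70 (SE 0.48, edgeR unadjusted p = 0.17, adjusted p = 0.605).

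Vldlr, the receptor for very low density lipoproteins, was at 57.8, 59.4, 84.5 and 80.4 CPM in the WT libraries, 73.4, 72.7, 60.5 and 301 CPM in the Lepob/+ libraries, 63.6, 45.1, 108 and 55.0 CPM in the SOD1G93A libraries and 86.4, 82.1, 103 and 82.8 CPM in the SOD1G93A-Lepob/+ libraries. Lepob/+ replicate 4, the library rich in muscle transcripts, stood more than 2-fold above every other library. The Lepob/+ mean of 127 ± 116 CPM (SD, n = 4) and its log2 difference from WT of 0.85 (SE 0.44, edgeR unadjusted p = 0.0761, adjusted p = 1) rested on that library, and without it the difference was -0.051. The difference between SOD1G93A-Lepob/+ and Lepob/+ turned from -0.52 to 0.37 when it was left out. The part of muscle tissue in this value was not tested.

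**Figure D3:**
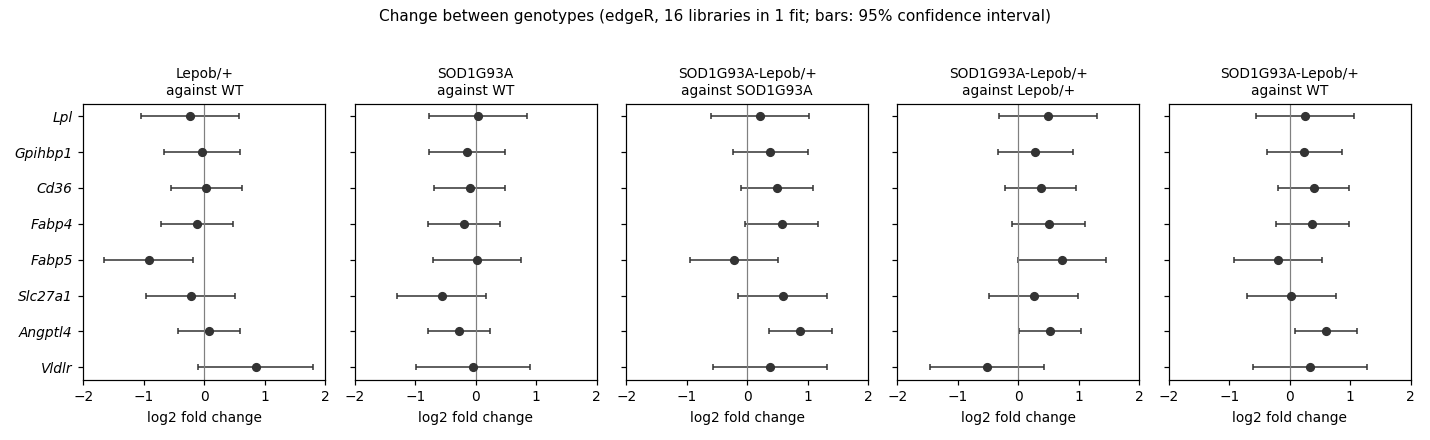
Log2 fold change of each gene (vertical axis) in 5 comparisons of genotypes (panels), with 95% confidence intervals from the edgeR fit. Intervals clear 0 for Fabp5 in Lepob/+ against WT and for Angptl4 in all 3 comparisons of SOD1G93A-Lepob/+, with no adjusted p below 0.05.

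The mean was highest in SOD1G93A-Lepob/+ for 6 of the 8 genes, the exceptions being Fabp5 (SOD1G93A) and Vldlr (Lepob/+), and lowest in SOD1G93A for 6, the exceptions being Lpl and Fabp5 (both Lepob/+). For every gene, genotypes next to each other in the order of means overlapped. In edgeR 0 of 8 passed an adjusted p of 0.05 in any comparison, as did 0% of all 19736 genes. At an unadjusted p under 0.05, 1 of 8 (Fabp5, lower) passed in Lepob/+ against WT, where 4.37% of all genes did, and 0 of 8 in SOD1G93A against WT, where 2.56% did. Angptl4 was the 1 of 8 that passed in SOD1G93A-Lepob/+ against SOD1G93A (16.5% of all genes), against Lepob/+ (8.24%) and against WT (4.74%), for the interaction (7.98%) and for any difference among the 4 genotypes (6.15%). Angptl4 and Fabp5 were the 2 of 8 that passed between all Lepob/+ carriers and non-carriers (9.64%), at 0.48 and -0.57, and 0 of 8 passed between SOD1G93A carriers and non-carriers (3.2%). The libraries of the compared genotypes did not overlap for 1 of 8 genes, Angptl4, in SOD1G93A-Lepob/+ against SOD1G93A, where 7.18% of all genes did not overlap, and against WT, where 3.64% did not. No gene of the 8 was free of overlap in Lepob/+ against WT (0.907% of all genes), in SOD1G93A against WT (2.05%) or in SOD1G93A-Lepob/+ against Lepob/+ (2.35%).

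With limma voom and quality weights, 5 of 8 passed an adjusted p of 0.05 in SOD1G93A-Lepob/+ against SOD1G93A, where 31.5% of all genes did. They were Angptl4 (0.88), Slc27a1 (0.75), Fabp4 (0.71), Cd36 (0.68) and Vldlr (0.59). Of these, Cd36 (-0.11) and Vldlr (-0.29) were below 0 among the libraries with few lymphocyte transcripts, and Vldlr also with the lymph node covariate (-0.27). Those libraries, chosen after seeing the data, included 1 SOD1G93A library, replicate 3. From the highest, it ranked 3 of 16 for Cd36 and 2 of 16 for Vldlr. DESeq2 passed 1 of 8, Angptl4, whether all libraries or the compared ones entered, against 2.85% and 8.11% of all genes. The median log2 difference of the 8 genes in this comparison was 0.44, and that of all genes 0.00045. The level in SOD1G93A-Lepob/+ was higher for 7 of 8 genes. It was higher for 5 of 8 when scaled to the adipocyte list and for 4 of 8 with the lymph node covariate. Among the libraries with few lymphocyte transcripts it was higher for 3 of 8, against the single SOD1G93A library there. Without Lepob/+ replicate 4 and SOD1G93A-Lepob/+ replicate 3 it was higher for 7 of 8 (median 0.37). Angptl4 had a higher level under each of these. SOD1G93A-Lepob/+ replicate 3, the library with Y chromosome counts, held the highest level of its genotype for Lpl, Gpihbp1, Cd36, Angptl4 and Vldlr.

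The 6 libraries with many lymphocyte transcripts held low levels of most of these genes. For Vldlr all 6 were the 6 lowest of the 16 libraries, with a median of 58.6 CPM against 83.6 CPM in the other 10. For Lpl, Gpihbp1 and Cd36 5 of the 6 were among the 6 lowest, with medians of 3632 against 5912 CPM, 78.0 against 111 CPM and 1435 against 2289.6 CPM. For Fabp4 and Angptl4 4 of the 6 were among the 6 lowest. Slc27a1 and Fabp5 stood apart from the rest, with 3 and 2 of the 6. These libraries were singled out by lymphocyte genes alone, and they are no group of the study, so no test was made.

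**Figure D4:**
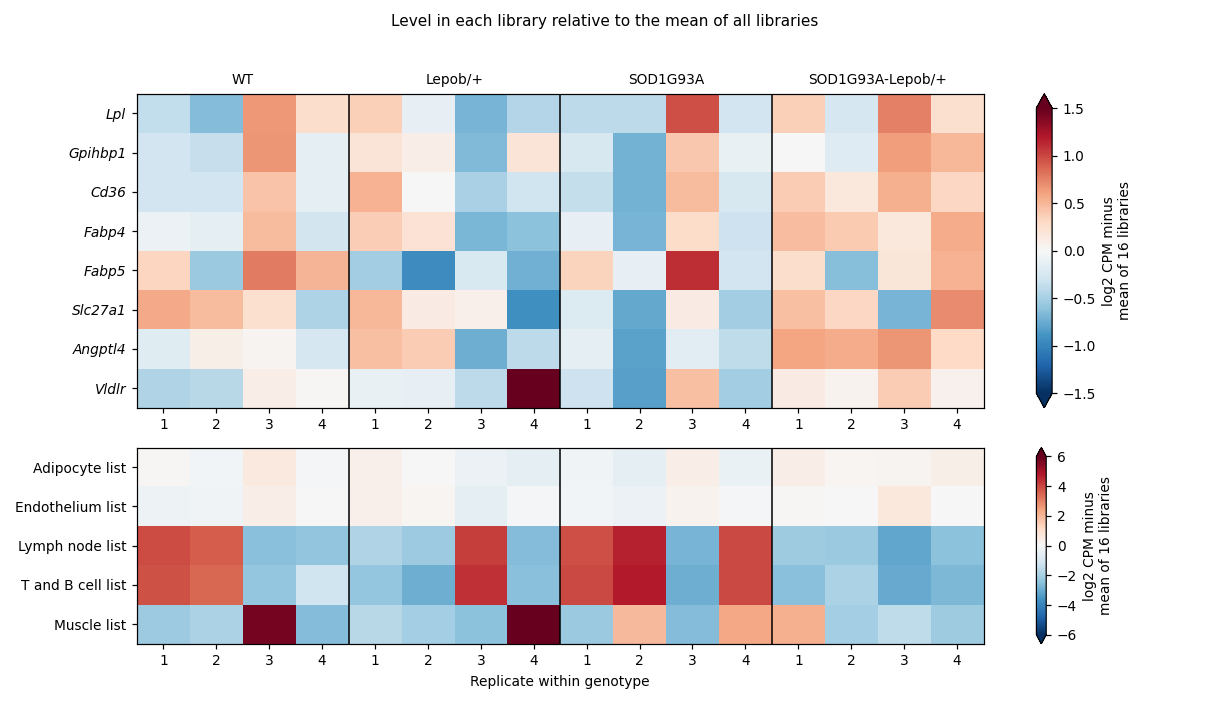
Log2 CPM of each gene minus its own mean over the 16 libraries (upper panel, colour scale in log2 units) and the mean of 5 marker lists on a wider scale (lower panel), by library within genotype. WT replicate 3 and SOD1G93A replicate 3 are high for Lpl, Cd36 and Fabp5 together, and the 6 libraries high for lymph node and lymphocyte lists are low for most genes but Slc27a1 and Fabp5.

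The genes separated by how tightly they followed the adipocyte markers. For each library the mean log2 CPM of the 12 mature adipocyte genes was subtracted from that of each gene. Fabp4 kept an SD over the 16 libraries of 0.17 log2 units, down from 0.43 before the subtraction, and Cd36 0.19, down from 0.40. Lpl (0.32 from 0.52), Gpihbp1 (0.31 from 0.42), Angptl4 (0.34 from 0.46) and Slc27a1 (0.40 from 0.52) kept more of their spread. Fabp5 kept most of it (0.50 from 0.59). The spread of Vldlr grew (0.70 from 0.62), but this rested on Lepob/+ replicate 4, at -1.01. In all other libraries Vldlr lay between -4.03 and -3.30.

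**Figure D5:**
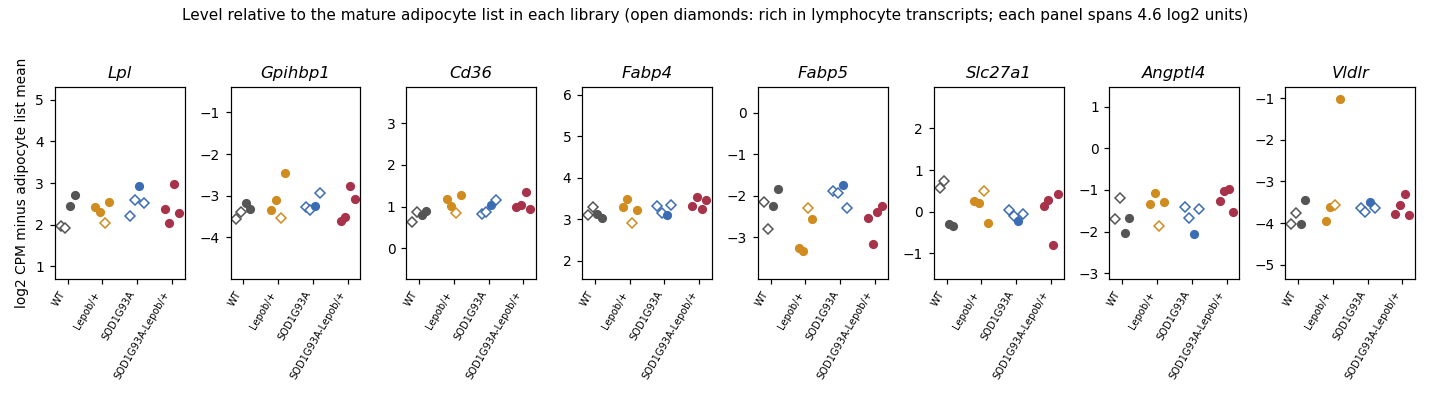
Log2 CPM of each gene minus the mean log2 CPM of the 12 mature adipocyte genes in the same library (vertical axes, equal span in every panel), for the 4 libraries of each genotype. Fabp4 and Cd36 lie in narrow bands (SD 0.17 and 0.19 log2 units) and Fabp5 in a wide one (SD 0.50). The SD of 0.70 for Vldlr rests on Lepob/+ replicate 4, at -1.01, with all other libraries between -4.03 and -3.30.

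Likeness between genes was measured as the root mean square difference of log2 CPM, each gene centred on its own mean, over the 16 libraries, so that a smaller value means more alike profiles. Among the 8, the closest pairs were Cd36 with Fabp4 (0.20), Gpihbp1 with Cd36 (0.22) and Fabp4 with Angptl4 (0.24). The farthest was Slc27a1 with Vldlr (0.89), but that distance rested on Lepob/+ replicate 4. Without this library, an alternative added after seeing the data, it was 0.52, the farthest pair was Fabp5 with Angptl4 (0.77, against 0.75 with it), and Cd36 with Vldlr (0.19, against 0.60 with it) became the closest. Among the other 19735 genes tested, Lpl was nearest to Hebp1 (0.13), Matn2 (0.14) and Bche (0.15), Gpihbp1 to Ptprb (0.12), Esam (0.13) and Ube2e2 (0.14) and Cd36 to Aqp7 (0.11), Cd300lg (0.12) and H6pd (0.12). Ptprb and Esam are endothelial genes, and Aqp7 is the glycerol channel of adipocytes. Fabp4 was nearest to Asns (0.15), Pon3 (0.16) and Mgst1 (0.16), Fabp5 to Slc25a10 (0.21), Adap1 (0.25) and Mrap (0.26) and Slc27a1 to Pnpla2 (0.22), Pck1 (0.25) and Acsm5 (0.25). Pnpla2 encodes the adipocyte triglyceride lipase ATGL, and Pck1 an enzyme of glyceroneogenesis. Angptl4 was nearest to Pxdn (0.19), Slc22a4 (0.20) and Ffar2 (0.20) and Vldlr to Kif1c (0.15), Hspb1 (0.17) and Macrod2 (0.19). Without Lepob/+ replicate 4, 3 of 3 of these nearest genes stayed among the nearest 3 for Gpihbp1, 2 of 3 for Lpl, Cd36, Fabp5 and Angptl4, 1 of 3 for Slc27a1 and 0 of 3 for Fabp4 and Vldlr. Vldlr was then nearest to Sord (0.11), Inpp5a (0.11) and Tns1 (0.12), and Fabp4 to Hrct1 (0.14), Atp9a (0.14) and Gm44250 (0.14). All libraries share their scaling and the composition differences above, so these values describe profiles in these libraries only.

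Set against the mean profiles of the marker lists, Gpihbp1 was nearest to the blood vessel endothelium (0.20, against 0.30 for the mature adipocytes). Without Lepob/+ replicate 4 these distances were 0.19 and 0.23. Fabp4 was nearest to the mature adipocytes (0.17, against 0.29 for the endothelium). Cd36, Lpl and Angptl4 were about as near to the endothelium (0.19, 0.30 and 0.31) as to the adipocytes (0.18, 0.31 and 0.33). Fabp5 and Slc27a1 were farther from the endothelium (0.58 and 0.58) and from the adipocytes (0.48 and 0.39). Vldlr was at 0.56 and 0.68 from the endothelium and the adipocytes, and at 0.22 and 0.20 without Lepob/+ replicate 4.

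The wider pathway was read from 6 lists around the 8 genes, in SOD1G93A-Lepob/+ against SOD1G93A first, where 16.5% of all genes passed an unadjusted p under 0.05 and 0 of all genes an adjusted one. Split by direction, 827 of all 19736 genes were higher and 2434 lower at that unadjusted p. Of 16 tested genes that process or control the lipase, 3 were higher at that level. Apoc1, an apolipoprotein that slows the clearance of triglyceride-rich particles, was at 53.3, 56.4, 80.5 and 50.4 CPM in SOD1G93A-Lepob/+ and 49.1, 23.6, 37.1 and 30.0 CPM in SOD1G93A. All 4 of the first lay above all 4 of the second, and the log2 difference was 0.78 (SE 0.22, edgeR unadjusted p = 0.00341, adjusted p = 0.261). Pcsk5, a proprotein convertase that can cleave lipases, differed by 0.90 (unadjusted p = 0.0121). Apoc2, the cofactor that lipoprotein lipase needs, differed by 0.35 (unadjusted p = 0.242).

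Of 17 tested fatty acid carriers and membrane transporters, 3 were higher, among them Slc27a4 (0.33, SE 0.13, unadjusted p = 0.0229), a relative of Slc27a1. Of 13 acyl-CoA synthetases and esterifying enzymes, which trap the fatty acid once inside, 0 passed in edgeR at either level. Of 12 lipoprotein receptors, Lrp5 was higher by 0.49 (unadjusted p = 0.0241) and Lrp8, the apolipoprotein E receptor, had a log2 difference of -2.66 (unadjusted p = 0.00728), beside the T cell and B cell list, which was lower in the same libraries. Of 16 transcription factors and endothelial signals of fatty acid uptake, Rxra, the partner of PPARγ, was higher by 0.73 (SE 0.24, unadjusted p = 0.00927) and Nr1h3, which encodes the oxysterol receptor LXRα, by 0.49 (unadjusted p = 0.0332). Angptl4 is also a gene of fasting and glucocorticoid response. Of the 12 other genes of that response 0 passed here in edgeR, with 6 of 12 higher and a median of 0.044. In SOD1G93A-Lepob/+ against WT all 12 were higher (median 0.59), as were 10069 of all 19736 genes. Between Lepob/+ carriers and non-carriers all 12 were higher (median 0.40), as were 10691 of all 19736. In SOD1G93A-Lepob/+ against Lepob/+ 5 of 12 were higher (median -0.23). The carrier comparison and this one include Lepob/+ replicate 4, the library rich in muscle transcripts. Its mean over these 12 genes was 208 CPM, against at most 105 CPM in any other library. The part of this response in the Angptl4 level was not tested.

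In Lepob/+ against WT, 5 of those 12 fasting and glucocorticoid genes were higher at an unadjusted p under 0.05, where 4.37% of all genes passed. Split by direction, 702 of all 19736 genes were higher and 160 lower at that p. In the same comparison 12 of 12 skeletal muscle genes had a higher level (median 5.22, 4 of 12 at that p) and 2 of 9 thermogenic adipocyte genes passed. Without Lepob/+ replicate 4, a count added after seeing the data, 2 of the 12 fasting and glucocorticoid genes passed, where 341 of all 20078 genes tested did, and all 12 muscle genes had a lower level (median -5.61, 7 of 12 at that p). Among the WT libraries, replicate 3 averaged 404 CPM for the muscle list, and replicates 1, 2 and 4 averaged 5.42, 4.67 and 4.47 CPM. Lepob/+ replicates 1, 2 and 3 averaged 5.16, 4.71 and 4.23 CPM, so the lower level rested on WT replicate 3. The part of muscle tissue in these values was not tested. Pdk4, which holds back glucose oxidation, was at 89.6, 70.1, 207 and 1052 CPM in Lepob/+ and 54.6, 71.8, 77.5 and 30.6 CPM in WT. Its log2 difference was 2.60 (SE 0.72, edgeR unadjusted p = 0.00282, adjusted p = 1), and it was 1.04 without Lepob/+ replicate 4. Ddit4 (1.24, unadjusted p = 0.00586) and Sgk1 (1.20, unadjusted p = 0.0142) are classic glucocorticoid targets, at 1.22 (unadjusted p = 0.0123) and 0.48 (unadjusted p = 0.147) without that library, while the Angptl4 difference was 0.082. Fabp3, the heart and muscle carrier, was at 0.141, 0.269, 20.7 and 176 CPM in Lepob/+ and 0, 0.159, 2.74 and 0.397 CPM in WT, so its 2 high values lay in replicates 3 and 4. Lepob/+ replicate 3 averaged only 4.23 CPM for the skeletal muscle list. Its thermogenic adipocyte list averaged 85.4 CPM, against at most 40.6 CPM elsewhere. The part of thermogenic adipocytes in these values was not tested. In the remaining pathway lists, 2 of 16 genes around the lipase were lower, 3 of 17 carriers were higher, 1 of 13 synthetases was higher and 1 lower, and 0 of 12 receptors and 0 of 16 transcription factors and signals passed. Without Lepob/+ replicate 4, 2 of 16 genes around the lipase were lower, 1 of 17 carriers and 1 of 16 transcription factors and signals were higher, 1 of 13 synthetases was lower, and 0 of 12 receptors passed in edgeR.

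The remaining marker lists were read in SOD1G93A-Lepob/+ against SOD1G93A at an unadjusted p under 0.05, where 827 of all 19736 genes were higher. Higher at that p were 1 of 10 blood vessel, 4 of 10 mammary epithelium and 2 of 12 mature adipocyte genes. The 2 adipocyte genes were Cidec and Plin4, which coat the lipid droplet, at 0.77 and 0.73. In edgeR 0 of 12 macrophage, 0 of 12 skeletal muscle and 0 of 9 thermogenic adipocyte genes passed. By direction alone, all 12 macrophage genes (median 0.56) and all 10 blood vessel genes (median 0.35) were higher, as were 9882 of all genes. All 9 thermogenic genes (median -0.42) and 11 of 12 muscle genes (median -0.90) were lower, as were 9854 of all genes. The part of these cell types in the levels of the 8 genes was not tested.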

How the data were processed

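Bulk RNA-seq of dissected iWAT was measured in 16 libraries, 4 per genotype. The authors aligned reads to mm10 with HISAT2 (version 2.1.0) and counted them per gene with featureCounts (version 2.0.2) (submitters' processing notes), and deposited raw counts for 54752 Ensembl gene identifiers. The annotation release, the strand setting and whether reads or pairs were counted are not given in the sources used here. The study's methods count animals as n, so the 4 libraries of a genotype are taken as 4 mice.

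Genes with too few counts were removed with edgeR's filter (minimum count 10, minimum total 15), libraries were scaled by the trimmed mean of M values, and 1 quasi-likelihood model over all 16 libraries was fitted with edgeR 4.0.16 in R 4.3.3, with contrasts between genotypes, each mutation's average effect, their interaction and any difference among the 4. P-values were adjusted by Benjamini-Hochberg over 19736 genes, with a threshold of 0.05. CPM were computed from the counts with a prior count of 1 on the log2 scale, and lengths for RPKM came from GENCODE M21. Single genes were also compared by exact permutation of the libraries. DESeq2 1.42.0, limma 3.58.1 voom, other scalings, filters, covariates and left-out libraries were tried as alternatives. The steps were also run on simulated counts, with a capped spread for each gene and no differences in tissue composition. That run therefore does not cover such differences.

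Groups came from the labels. The 8 genes, the 14 other gene lists and the tests were chosen with earlier results of these data known. From each other list the 3 genes with the smallest p for any difference among genotypes could be named.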

Additional observations from a re-analysis of the deposited data

Results flagged for a closer look

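In 4 of the 32 combinations of gene and genotype, 1 library stood apart from the other 3 by Dixon's ratio, which must exceed 0.829 for 4 values, and chance alone gives about 1 in 20 groups. Lpl was at 9326 CPM in SOD1G93A replicate 3, against 3623 to 3889.9 CPM in the other 3, and this was the SOD1G93A library with few lymphocyte transcripts. Gpihbp1 was at 153 CPM in WT replicate 3, against 76.5 to 88.0 CPM in the others. Gpihbp1 was also low in Lepob/+ replicate 3, at 61.1 CPM against 104 to 111 CPM, and this was the Lepob/+ library with many lymphocyte transcripts. Vldlr was at 301 CPM in Lepob/+ replicate 4, against 60.5 to 73.4 CPM, in the library with many muscle transcripts. The part of those cell types in these values was not tested.

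For Angptl4, the effect of Lepob/+ differed between mice with and without the SOD1G93A transgene by 0.80 on the log2 scale (SE 0.34, edgeR interaction term, unadjusted p = 0.033, adjusted p = 0.564). The effect was 0.88 with the transgene and 0.082 without it. Under all alternatives it lay between 0.19 and 0.98, with 0 past an adjusted p of 0.05 under edgeR, DESeq2 or limma.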

How the results depend on the processing

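The number of the 8 genes past an adjusted p of 0.05 was 0 in every comparison under edgeR, and stayed at 0 without any 1 library. DESeq2 on all libraries called 1 and DESeq2 on the compared libraries 1 in SOD1G93A-Lepob/+ against SOD1G93A, where limma voom called 5; DESeq2 on the compared libraries called 1 in SOD1G93A-Lepob/+ against WT, and voom called 3 between Lepob/+ carriers and non-carriers. The cause was not tested. Of all genes, voom called 31.5% and 20.5% in its comparisons and DESeq2 2.85%, 8.11% and 1.64%. Without any 1 library, the Angptl4 difference from SOD1G93A stayed between 0.76 and 0.97 and the Fabp5 difference of Lepob/+ from WT between -1.13 and -0.74. Scaling to the adipocyte list moved 4 mean levels by more than 1 SD, those of Cd36, Fabp4, Angptl4 and Vldlr in SOD1G93A-Lepob/+. Of the differences that voom called, 4 changed sign elsewhere, none of them with a call there. With the lymph node covariate these were Vldlr against SOD1G93A (-0.27) and, for Lepob/+ carriers, Cd36 (-0.018) and Fabp4 (-0.0074). Among the libraries with few lymphocyte transcripts they were Cd36 (-0.11) and Vldlr (-0.29) against SOD1G93A and Cd36 for carriers (-0.093). Those libraries were chosen after seeing the data and held 1 SOD1G93A library. The Angptl4 differences called by DESeq2 or voom stayed above 0 throughout.

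With the replicate number as a block, 0 of 8 genes passed in any comparison, and Angptl4 differed by 0.87 (adjusted p = 0.362). Among 24 same-numbered library pairs, 5 deviated together (correlation over 0.1) and 8 oppositely (below -0.1), over a range of -0.69 to 0.52. What same-numbered samples share beyond the number was not tested. With 4 libraries per genotype the intervals were wide, and no smallest detectable difference was computed. The lymphocyte-rich libraries were unevenly spread over genotypes.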
